A study of Mus musculus with 6 samples.

Results

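The 10 genes described here encode the LINC complex (linker of nucleoskeleton and cytoskeleton) and other membrane proteins of the muscle nuclear envelope: Sun1, Sun2, Syne1, Syne2, Syne3, Tor1a, Tor1aip1, Tmem38a, Tmem214 and Wfs1. They were chosen by symbol, and all 10 were found among the 24421 genes listed in the count files and passed the filter on low counts. RNA of whole gastrocnemius-plantaris (GP) muscle was sequenced from male, 5-month-old mice, 3 months after tamoxifen. The labels give the strain as B6C3F1, whereas by the study's methods that was the strain of the injected zygotes and the founders were mated to C57BL/6N mice. Per the labels and the study's methods, the 3 Ctrl mice were Net39 fl/fl without Cre and the 3 cKO mice were HSACreERT2;Net39 fl/fl. Both groups thus carry the floxed allele and received tamoxifen. The human skeletal actin promoter drives the tamoxifen-inducible Cre in muscle fibers but not in satellite cells, and the other cells of the muscle keep the gene in this model. No group carries Cre without the floxed allele.

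Net39, the targeted gene, is listed as Ppapdc3 and encodes a muscle-specific transmembrane protein of the nuclear envelope. Its TMM-normalized CPM, counts scaled to the effective size of each library, were 7.92, 7.75 and 5.93 in libraries Ctrl 1, 2 and 3 and 151, 113 and 138 in cKO 1, 2 and 3. The targeted gene therefore goes against the labels, as the paper reports less Net39 mRNA in cKO than in Ctrl muscle. Whether the labels were exchanged was not tested, and they were kept as given. Libraries are therefore called labelled-Ctrl or labelled-cKO, and each log2 fold change is the labelled-cKO level over the labelled-Ctrl level, so that the labelled-cKO libraries are those with high Net39. Total counts per library were 33860001 to 38201728 in labelled-Ctrl muscle and 39191239 to 48839910 in labelled-cKO muscle. Fiber markers summed to 96742 to 116096 CPM in labelled-Ctrl muscle and 142768 to 188238 CPM in labelled-cKO muscle, where Ckm, Tnnt3 and Myh4 of the 8 markers passed as higher and Myh1 as lower. Of that sum Myh4, a fast IIb myosin, made up 15349 to 36565 CPM in labelled-Ctrl and 57352 to 80134 CPM in labelled-cKO muscle. Without Ctrl 2 or cKO 1 none of the 8 markers passed (0 higher and 0 lower), and without cKO 3 there were 0 higher and 1 lower. Pecam1 of endothelium and Pax7 of satellite cells were also counted in whole muscle, at 107 and 2.17 CPM in labelled-Ctrl muscle. Whether fewer cells of a type or less RNA per cell lowers a gene cannot be told apart in these bulk samples.

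SUN proteins span the inner nuclear membrane and bind the lamina. In the space between the membranes they hold the KASH domains of nesprins, which span the outer membrane and reach actin, microtubule motors or, through plectin, intermediate filaments, so that force passes from the cytoskeleton to the nucleus. TorsinA, the product of Tor1a, is an ATPase of that space which needs a membrane-bound cofactor such as LAP1, the product of Tor1aip1. Tmem38a, Tmem214 and Wfs1 encode membrane proteins of the envelope and the endoplasmic or sarcoplasmic reticulum (SR), which are one continuous membrane system.

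Syne1, Tor1aip1 and Wfs1 differed between the labelled groups. Syne1 and Tor1aip1 were higher in labelled-cKO muscle, 1.52-fold and 1.47-fold, and Wfs1 was 2.50-fold higher in labelled-Ctrl muscle. Thus 3 of 10 members had an adjusted p under 0.05 in edgeR's quasi-likelihood test, against 24.4% of the 14180 genes tested. By direction, 2 of 10 were higher in labelled-cKO muscle (12.6% of all genes tested) and 1 of 10 in labelled-Ctrl muscle (11.8%). Only Wfs1 also passed the fold change over 2 that the study used, which 6.05% of all genes did. In 6 of 10 members the ranges of the groups were separate, which held for 43.9% of all genes tested. The median log2 fold change of the 10 members was -0.03, beside -0.02 for all genes tested. The shares of members are thus near those of all genes, and the members are described one by one.

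**Figure D1:**
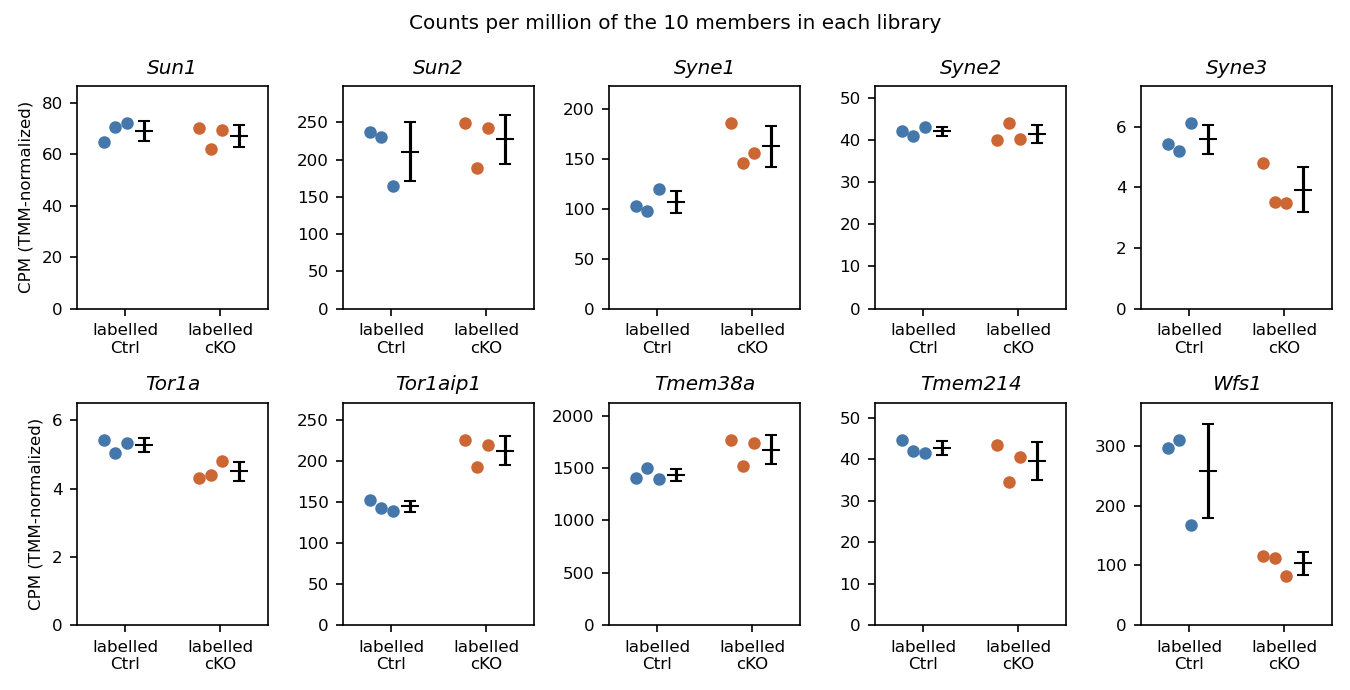
TMM-normalized CPM of each member (y axis, from 0) in the 3 libraries labelled Ctrl and the 3 labelled cKO, with the mean and SD as a black bar beside the points. The groups are apart in Syne1, Syne3, Tor1a, Tor1aip1, Tmem38a and Wfs1 and overlap in Sun1, Sun2, Syne2 and Tmem214.

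Wfs1 encodes wolframin, an endoplasmic reticulum protein linked to calcium handling and the unfolded protein response and mutated in Wolfram syndrome. In GRCm38 (mm10) the gene lies on chromosome 5, minus strand, from 36966104 to 36989205, and its longest transcript in GENCODE M21 has 8 exons. Its RefSeq promoter window, from 250 bases before to 50 bases after the start site, is shown because this member had the largest fold change. It lies at chr5:36988933-36989232 on the minus strand of GRCm38.p6 and is 70.0% G and C, with a CCAAT box, found on the opposite strand as ATTGG, in capitals.

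Wfs1: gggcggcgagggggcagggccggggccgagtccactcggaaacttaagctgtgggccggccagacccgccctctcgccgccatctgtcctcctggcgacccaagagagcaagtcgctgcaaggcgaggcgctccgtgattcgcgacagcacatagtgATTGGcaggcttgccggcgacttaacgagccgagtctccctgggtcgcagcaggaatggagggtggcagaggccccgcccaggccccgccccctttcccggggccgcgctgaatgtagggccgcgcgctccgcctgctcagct

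CCAAT on either strand was found in 37.4% of the 32851 RefSeq promoter windows. The endoplasmic reticulum stress element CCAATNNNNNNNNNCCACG, whose first 5 letters are the CCAAT box, was found on either strand in 0.119% of windows and in 0 of the 14 windows of the 10 members.

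Wfs1 had 296, 310.4 and 168 CPM in libraries Ctrl 1, 2 and 3 and 116, 112 and 81.5 CPM in cKO 1, 2 and 3. The groups did not overlap, although Ctrl 3 lay well below the other 2 libraries of its group (exact two-sided permutation test, p = 0.1, which no arrangement of 6 libraries in groups of 3 can go below). The log2 fold change was -1.32 (standard error 0.25, 95% interval -1.90 to -0.74, adjusted p = 0.0117). With each library left out in turn it ranged from -1.55 to -1.16 and the largest adjusted p was 0.0439. Slow-fiber markers moved in the same direction: 3 of 8 passed the test, all higher in labelled-Ctrl muscle, and their summed level was 8481 to 14598 CPM there and 446 to 3873 CPM in labelled-cKO muscle. The 3 were Tnnt1, Myl2 and Atp2a2. With 1 library left out, 0 to 7 of these 8 markers passed, 0 of them without Ctrl 1, Ctrl 2 or cKO 1 and 7 without cKO 2. Under total counts 6 of the 8 passed, with DESeq2 6 and with the robust fit 1, all in the same direction. Within labelled-Ctrl muscle 6 of the 8 markers were lowest in Ctrl 3, where Wfs1 was lowest, and within labelled-cKO muscle 8 of 8 were lowest in cKO 3, where Wfs1 was lowest too. Wfs1 was highest in Ctrl 2 and in cKO 1, where 0 of the 8 markers were highest. Of the macrophage markers, 6 of 8 also passed as higher in labelled-Ctrl muscle (2 without Ctrl 2 or cKO 3, 3 without Ctrl 3 or cKO 1), with sums of 166 to 194 CPM against 78.9 to 113 CPM. No defining gene of either list was at 0, and their part in the Wfs1 difference was not tested.

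Endoplasmic reticulum stress genes, the setting in which wolframin is best known, were followed in a list of 18, all tested. Of these, 4 were higher in labelled-Ctrl muscle, 1 was higher in labelled-cKO muscle and 13 did not pass, with a median log2 fold change of -0.23 beside -0.02 for all genes. The 4 were Canx (-0.67, standard error 0.11, adjusted p = 0.00787), a lectin chaperone, Syvn1 (-0.51, standard error 0.09, adjusted p = 0.008), a ubiquitin ligase of protein disposal, Ddit3 (-0.61, standard error 0.11, adjusted p = 0.0118), which encodes the factor CHOP, and Hspa5 (-0.65, standard error 0.15, adjusted p = 0.0213), which encodes the chaperone BiP. The gene in the other direction was Casp12 (0.81, standard error 0.23, adjusted p = 0.0398), a caspase of the endoplasmic reticulum. Under total counts in place of TMM factors 13 of the 18 genes passed as higher in labelled-Ctrl muscle and 0 as higher in labelled-cKO muscle (edgeR, beside 8 and 3 at an unadjusted p under 0.05 with TMM factors), and with DESeq2 8 and 2. With 1 library left out the number higher in labelled-Ctrl muscle was 3 to 7, and it was 7 without Ctrl 2 or cKO 2. Hspa5 did not pass without Ctrl 1, cKO 1 or cKO 3, nor Casp12 without cKO 3 or any library labelled Ctrl. Cisd2, whose product is affected in a second form of Wolfram syndrome, had 58.9 ± 3.38 CPM (SD, n = 3) in labelled-Ctrl muscle and 67.3 ± 2.80 CPM (SD, n = 3) in labelled-cKO muscle and did not pass (log2 fold change 0.19, adjusted p = 0.106).

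Tmem214, whose product has been tied to cell death under endoplasmic reticulum stress, had 44.7, 42.0 and 41.6 CPM in labelled-Ctrl muscle and 43.5, 34.6 and 40.6 CPM in labelled-cKO muscle. The groups overlapped. The log2 fold change of -0.11 did not pass (95% interval -0.34 to 0.11, adjusted p = 0.425).

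Syne1 encodes nesprin-1, whose short muscle form anchors microtubule-organizing proteins at the myonuclear surface. The gene spans chromosome 10 from 5020917 to 5551482 on the minus strand, its longest transcript has 146 exons, and joined exons of all its transcripts cover 40491 bases. Tor1aip1 lies on the minus strand of chromosome 1 from 156004599 to 156036480. For both members that were higher in labelled-cKO muscle the 1 promoter window that holds the E-box CAGCTG is shown, at chr10:5550643-5550942 and chr1:156036431-156036730 on the minus strand of GRCm38.p6, with these letters, a form bound by myogenic factors, in capitals.

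Syne1: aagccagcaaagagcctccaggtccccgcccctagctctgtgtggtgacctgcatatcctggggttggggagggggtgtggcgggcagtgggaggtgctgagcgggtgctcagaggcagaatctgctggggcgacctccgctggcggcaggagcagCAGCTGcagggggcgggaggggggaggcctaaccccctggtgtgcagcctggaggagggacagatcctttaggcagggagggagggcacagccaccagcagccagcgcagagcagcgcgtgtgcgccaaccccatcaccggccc

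Tor1aip1: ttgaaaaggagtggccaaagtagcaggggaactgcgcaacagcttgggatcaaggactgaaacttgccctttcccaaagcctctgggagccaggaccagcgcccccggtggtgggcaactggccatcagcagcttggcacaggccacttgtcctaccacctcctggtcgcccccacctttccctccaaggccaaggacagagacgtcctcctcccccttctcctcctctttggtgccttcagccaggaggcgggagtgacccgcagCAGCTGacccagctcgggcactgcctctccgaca

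CAGCTG reads the same on both strands and was found in 16.3% of all windows and in 3 of the 14 windows of members, 1 each of Syne1, Syne2 and Tor1aip1, of which Syne2 did not pass the test. RefSeq gives 3 windows for Syne1 and 2 for Tor1aip1, and the windows of these genes that are not shown do not hold CAGCTG. The counts are per gene, so neither the starts nor the long and short forms were separated.

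Syne1 had 103, 97.8 and 119.6 CPM in libraries Ctrl 1, 2 and 3 and 186, 146 and 156 CPM in cKO 1, 2 and 3. Every library labelled cKO lay above every library labelled Ctrl (exact two-sided permutation test, p = 0.1). The log2 fold change was 0.61 (standard error 0.12, 95% interval 0.32 to 0.89, adjusted p = 0.014). It did not pass without library Ctrl 1 (log2 fold change 0.58, adjusted p = 0.0566) or Ctrl 2 (0.55, adjusted p = 0.054), and under total counts it was 0.35 (adjusted p = 0.0373). Of the markers of the neuromuscular junction, where nesprin-1 is abundant, 0 of 6 passed edgeR's test, 3 had an unadjusted p under 0.05, all of them higher in labelled-Ctrl muscle, and Colq passed with DESeq2 in that direction. Under total counts 4 passed, and 1 and 2 without cKO 1 and cKO 2, in the same direction. Their summed level was 127 to 165 CPM in labelled-Ctrl muscle and 116 to 155 CPM in labelled-cKO muscle.

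Other cells of whole muscle were followed by their markers. Of 9 endothelial markers Vwf passed (507 to 522 CPM summed in labelled-Ctrl muscle and 454 to 486 CPM in labelled-cKO muscle), of 8 fibro-adipogenic progenitor markers Lum and Col3a1 (2713 to 2807 and 1961 to 2849 CPM) and of 5 Schwann cell markers Pmp22 (140.4 to 205 and 80.2 to 130.0 CPM), all higher in labelled-Ctrl muscle. Of 4 satellite cell markers Cdh15 passed in the other direction (19.3 to 20.4 and 24.4 to 30.5 CPM). Under total counts 3 endothelial, 4 progenitor and 4 Schwann cell markers passed as higher in labelled-Ctrl muscle and 0 satellite cell markers passed. The progenitor count was 1 without Ctrl 1, Ctrl 2, cKO 1 or cKO 3, and the endothelial count was 2 without Ctrl 3 or cKO 2. Of 5 adipocyte and 5 tendon markers 0 passed edgeR's test, 0 had an unadjusted p under 0.05 and 0 passed with DESeq2. None of these lists had a marker at 0, and their part in the members' differences was not tested.

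Syne2 and Syne3 did not follow Syne1. Syne2, which encodes nesprin-2, had 42.0, 40.9 and 43.1 CPM in labelled-Ctrl muscle and 40.0, 44.0 and 40.3 CPM in labelled-cKO muscle, with overlapping groups and a log2 fold change of -0.02 (95% interval -0.19 to 0.15, adjusted p = 0.862). Syne3, which encodes the plectin-binding nesprin-3, had 5.44, 5.19 and 6.13 CPM in labelled-Ctrl muscle and 4.80, 3.51 and 3.48 CPM in labelled-cKO muscle. Its groups did not overlap, but the difference of -0.51 on the log2 scale missed the threshold (standard error 0.17, 95% interval -0.90 to -0.12, adjusted p = 0.0655). Without library cKO 1, the highest of its group, Syne3 passed (log2 fold change -0.69, adjusted p = 0.0361).

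Ratios within a library do not depend on how libraries are scaled. Per kb of exon, Syne3 stood to Syne1 as 0.384, 0.387 and 0.374 in labelled-Ctrl muscle and as 0.188, 0.175 and 0.163 in labelled-cKO muscle, a ratio 2.18-fold lower in labelled-cKO muscle. Syne2 stood to Syne1 as 0.616, 0.634 and 0.546 against 0.326, 0.456 and 0.392, a ratio 1.54-fold lower. Neither ratio overlapped between groups (exact two-sided permutation tests, p = 0.1 each and 0.167 adjusted over the 5 ratios tested). Syne1 thus stood higher against Syne2 and Syne3 in labelled-cKO muscle. Syne4, a further nesprin gene, was low, at 1.07 ± 0.106 CPM (SD, n = 3) in labelled-Ctrl muscle and 1.11 ± 0.191 CPM (SD, n = 3) in labelled-cKO muscle, and did not pass (log2 fold change 0.06, adjusted p = 0.874). No ratio to it was computed.

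**Figure D2:**
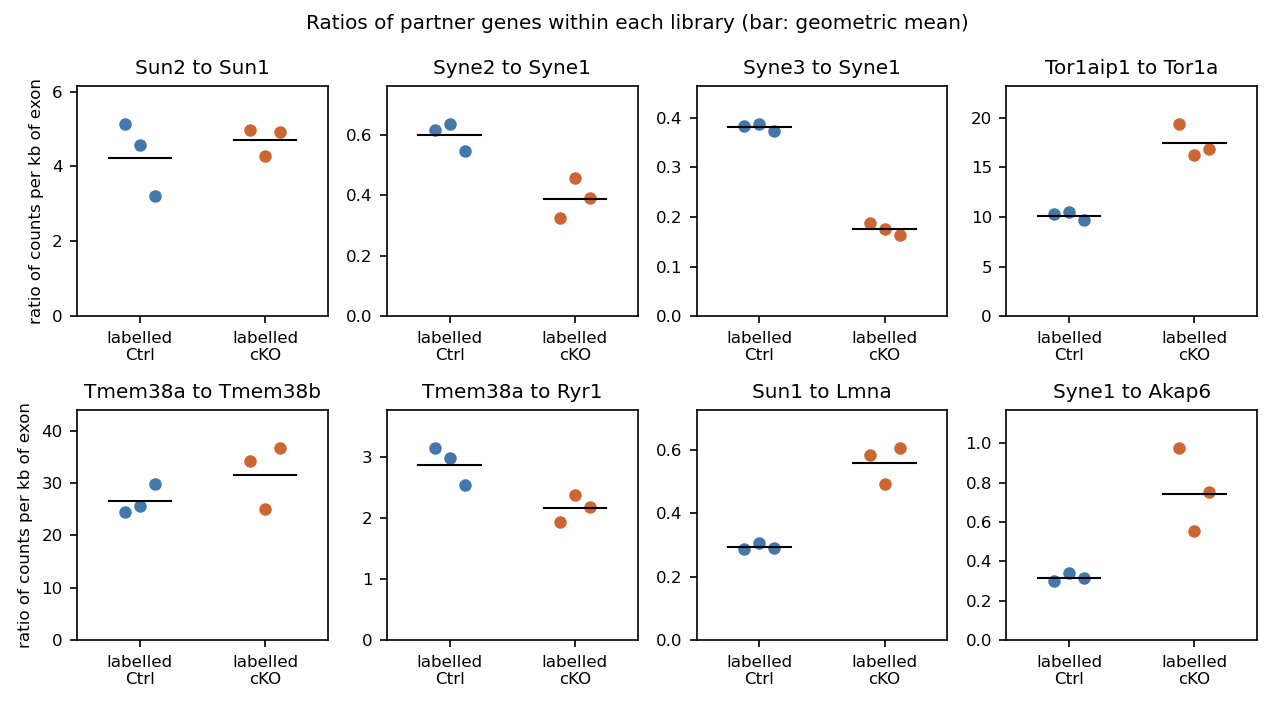
Ratio of counts per kb of exon within each library (y axis, from 0) for 8 pairs of genes, with black bars at the geometric mean of each group. The 3 pairs Tmem38a to Ryr1, Sun1 to Lmna and Syne1 to Akap6 were chosen after the values were seen and were not tested, and groups overlap only in Sun2 to Sun1 and Tmem38a to Tmem38b.

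Neither SUN gene passed the test. Sun1 had 64.9, 70.5 and 72.2 CPM in labelled-Ctrl muscle and 70.2, 62.1 and 69.4 CPM in labelled-cKO muscle, which overlapped, and its log2 fold change was -0.04 (95% interval -0.23 to 0.15, adjusted p = 0.736). Sun2 had 237, 230.2 and 165 CPM in labelled-Ctrl muscle and 249, 189 and 243 CPM in labelled-cKO muscle. The spread of Sun2 within each group exceeded the distance between them, with a log2 fold change of 0.11 (95% interval -0.29 to 0.50, adjusted p = 0.675) that was -0.04 without Ctrl 3. Under total counts it was -0.16, or 0.11 relative to the shifted median of all genes. Levels of Sun2 more than 1.42-fold higher in labelled-cKO muscle or more than 1.22-fold higher in labelled-Ctrl muscle lay outside the interval. Per kb of exon Sun2 exceeded Sun1 by 3.20 to 5.13 times in labelled-Ctrl muscle and 4.27 to 4.97 times in labelled-cKO muscle, and this ratio did not differ beyond its spread (exact two-sided permutation test, p = 0.7). With the longest transcript in place of all exons the geometric means of that ratio were 2.82 and 3.15.

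Among 23 relatives and partners of the LINC complex, 20 were tested, 3 were higher in labelled-Ctrl muscle, 0 were higher in labelled-cKO muscle, and the median log2 fold change was -0.10 beside -0.02 for all genes. At an unadjusted p under 0.05 edgeR gave 6 and 0, and DESeq2 at an adjusted p gave 3 and 0, in the same order, while Pcm1 was higher in labelled-cKO muscle without Ctrl 3. Sun3, Sun5 and Kash5 (listed as Ccdc155), genes best known from the germline, were at or near 0 counts and were not tested. The gene with the smallest p was Lmna, which encodes the A-type lamins that SUN proteins bind, at 181 ± 9.56 CPM (SD, n = 3) in labelled-Ctrl muscle and 92.6 ± 4.38 CPM (SD, n = 3) in labelled-cKO muscle (log2 fold change -0.97, standard error 0.08, adjusted p = 0.00106). Akap6, whose product binds nesprin-1α at the myonuclear envelope, was at -0.61 (standard error 0.15, adjusted p = 0.0268), and Mlip, which encodes a lamin-interacting protein of muscle, at -0.36 (standard error 0.08, adjusted p = 0.0207). Akap6 did not pass without Ctrl 1, Ctrl 3, cKO 1 or cKO 3, nor Mlip without Ctrl 1, Ctrl 2 or cKO 3, and under total counts 9 of the 20 genes passed as higher in labelled-Ctrl muscle. Genes for the centrosomal proteins that nesprin-1 helps recruit did not pass with TMM factors and all 6 libraries: Pcm1 was at 0.16 (adjusted p = 0.281), Akap9 at 0.18 (adjusted p = 0.318) and Pcnt at -0.45 (adjusted p = 0.122). Neither did Emd, which encodes emerin (-0.03, adjusted p = 0.887), Plec, which encodes plectin (0.01, adjusted p = 0.929), Tmem43, which encodes LUMA (-0.18, adjusted p = 0.199), or Tmem201, which encodes SAMP1 (0.04, adjusted p = 0.77). Under total counts Pcnt (-0.72, adjusted p = 0.019) and Tmem43 (-0.44, adjusted p = 0.00738) were among the genes that passed.

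As Syne1 and Akap6 passed in opposite directions, their ratio per kb of exon was 0.298, 0.340 and 0.315 in labelled-Ctrl muscle and 0.974, 0.554 and 0.751 in labelled-cKO muscle. The ratio of Sun1 to Lmna was 0.288, 0.304 and 0.289 against 0.583, 0.492 and 0.604, or 1.90-fold higher in labelled-cKO muscle. Both ratios were chosen after the values were seen and are given without a test. In the list of 11 lamina and inner membrane genes, which shares Lmna and Emd with the list above, 3 were higher in labelled-cKO muscle and 2 in labelled-Ctrl muscle, with a median log2 fold change of 0.10. Lemd2, of the LEM-domain family, went with Lmna (-0.58, standard error 0.08, adjusted p = 0.00521), whereas Lbr, the lamin B receptor gene (0.25, adjusted p = 0.032), Tmpo (0.77, adjusted p = 0.0332) and Lmnb1 (0.46, adjusted p = 0.0449) went the other way. These last 3 depended on scaling and on single libraries. Under total counts 0 of 11 genes were higher in labelled-cKO muscle by edgeR's test and 2 in labelled-Ctrl muscle, whereas with TMM factors 4 and 2 had an unadjusted p under 0.05 and DESeq2 gave 3 and 2. Without Ctrl 1, Ctrl 2, cKO 1 or cKO 3 the count was likewise 0 and 2, and it was 1 and 2 without Ctrl 3 (2 and 2 without cKO 2).

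Tor1aip1 passed the test, whereas Tor1a did not. Tor1aip1 had 152, 143 and 139.9 CPM in libraries Ctrl 1, 2 and 3 and 226, 193 and 219.6 CPM in cKO 1, 2 and 3. All 3 libraries labelled cKO lay above the Ctrl range (exact two-sided permutation test, p = 0.1). The log2 fold change was 0.56 (standard error 0.09, 95% interval 0.35 to 0.77, adjusted p = 0.00735), the smallest p among the members. It passed without any 1 of the 6 libraries, with values from 0.50 to 0.61 and a largest adjusted p of 0.0367, and under total counts at 0.30 (adjusted p = 0.0284). Its exons overlap those of Tor1aip2 on the opposite strand over 699 bases, and the use of strand in counting is not given in the sources used here, so reads of that stretch could belong to either gene. The same limit holds for Tmem214, Sun1 and Sun2, whose exons overlap other annotated genes on the opposite strand over 1480, 302 and 147 bases. Tor1aip2, which encodes the reticulum cofactor LULL1, was at 70.0 ± 6.56 CPM (SD, n = 3) in labelled-Ctrl muscle and 79.2 ± 1.62 CPM (SD, n = 3) in labelled-cKO muscle and did not pass (log2 fold change 0.18, adjusted p = 0.168).

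Tor1a had 5.44, 5.04 and 5.33 CPM in labelled-Ctrl muscle and 4.32, 4.39 and 4.82 CPM in labelled-cKO muscle. The groups did not overlap, but the log2 fold change of -0.22 did not pass (standard error 0.12, 95% interval -0.50 to 0.05, adjusted p = 0.203). The ratio of Tor1aip1 to Tor1a per kb of exon was 10.3, 10.5 and 9.68 in labelled-Ctrl muscle and 19.4, 16.2 and 16.8 in labelled-cKO muscle, 1.72-fold higher in the latter with no overlap (exact two-sided permutation test, p = 0.1, 0.167 adjusted over the 5 ratios). Of 5 relatives of this pair, the torsin gene Tor3a was higher in labelled-Ctrl muscle (log2 fold change -0.63, standard error 0.11, adjusted p = 0.00936), and the other 4 did not pass, among them Tor1b, the closest relative of Tor1a (0.13, adjusted p = 0.171). Tor1b, at 32.0 ± 1.08 CPM (SD, n = 3) in labelled-Ctrl and 35.2 ± 0.283 CPM (SD, n = 3) in labelled-cKO muscle, lay above Tor1a. The ratio of Tor1aip1 to Tor1b was not computed. Tor4a, named after its values were seen, was at -0.53 (adjusted p = 0.0621) and passed under total counts (-0.78, adjusted p = 0.0243), where 2 of the 5 passed.

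Tmem38a encodes TRIC-A, a cation channel of the SR and nuclear envelope that balances charge during calcium release through the ryanodine receptor, and was the most abundant member. It had 1407, 1499.7 and 1399 CPM in labelled-Ctrl muscle and 1771, 1518 and 1736 CPM in labelled-cKO muscle. The groups lay apart by a narrow margin, and the log2 fold change of 0.22 did not pass (standard error 0.11, 95% interval -0.03 to 0.47, adjusted p = 0.165). Under total counts it was -0.04 (adjusted p = 0.766), or 0.23 relative to the shifted median of all genes. Tmem38b, its relative of most tissues, was at 96.4 ± 11.5 CPM (SD, n = 3) and 94.4 ± 11.8 CPM (SD, n = 3) in labelled-Ctrl and labelled-cKO muscle. Tmem38a exceeded Tmem38b per kb by 24.4 to 29.9 times in labelled-Ctrl muscle and 25.1 to 36.7 times in labelled-cKO muscle, which overlapped (exact two-sided permutation test, p = 0.3).

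Genes of SR calcium release, the machinery beside TRIC-A, were higher in labelled-cKO muscle for 11 of 11 genes, with a median log2 fold change of 0.64. They included Atp2a1, the fast-fiber calcium pump (1.02, standard error 0.18, adjusted p = 0.00918), Casq1, the calcium buffer calsequestrin (0.99, standard error 0.16, adjusted p = 0.00724), the junctophilin genes Jph2 (0.97, adjusted p = 0.0075) and Jph1 (0.73, adjusted p = 0.0127), whose products tie the SR to the surface membrane, Trdn, the gene of triadin (0.55, adjusted p = 0.0224), Itpr1, an inositol trisphosphate receptor gene (0.85, standard error 0.11, adjusted p = 0.00431), and Ryr1, the ryanodine receptor gene (0.64, standard error 0.17, adjusted p = 0.0342). Only 4 or 5 of the 11 passed without Ctrl 1, Ctrl 2, cKO 1 or cKO 3, and 5 under total counts, while the sign was positive for all 11 in each of these fits. Relative to Ryr1, Tmem38a was lower in labelled-cKO muscle: their ratio per kb was 3.14, 2.98 and 2.54 against 1.93, 2.37 and 2.19, a pair chosen after the values were seen and not tested. Fast IIb fiber markers passed as higher in labelled-cKO muscle for 5 of 5 genes (1 of 5 without Ctrl 2 or cKO 3, 3 of 5 without cKO 1), Myh4 among them at 70116 ± 11637 CPM (SD, n = 3) against 25521 ± 10635 CPM (SD, n = 3), and their part in the SR gene differences was not tested. Beside Net39 itself, AI464131, the older symbol of the muscle envelope gene Myorg, was higher in labelled-cKO muscle (log2 fold change 0.84, standard error 0.10, adjusted p = 0.00336).

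**Figure D3:**
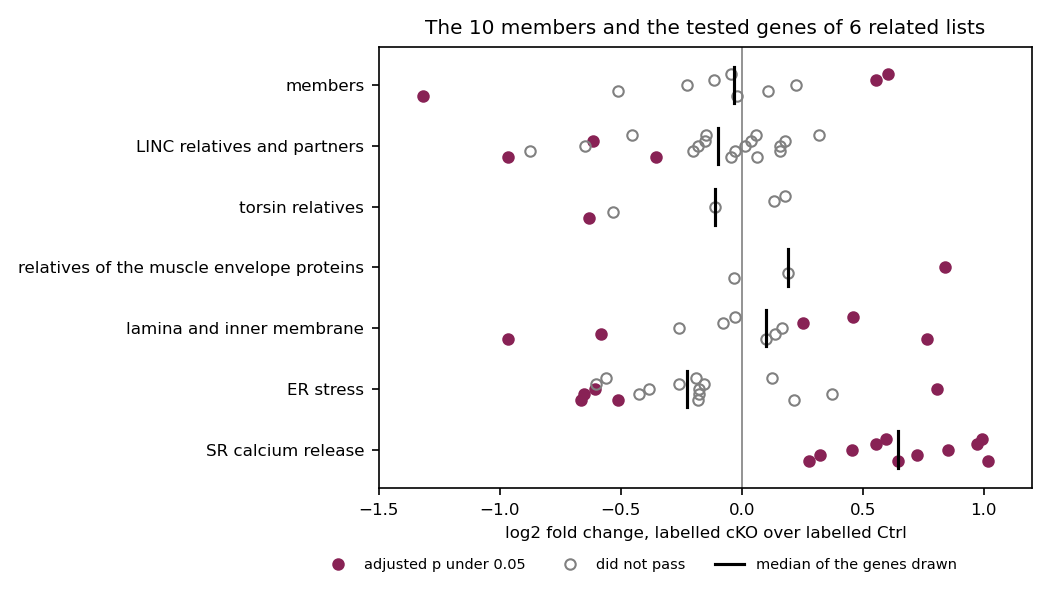
Log2 fold change of labelled cKO over labelled Ctrl (x axis) for the 10 members and the tested genes of 6 related lists, Ppapdc3 left out, with filled points at an adjusted p under 0.05 and a black line at each median. All 11 SR calcium release genes lie to the right of 0, while the members spread from -1.32 (Wfs1) to 0.61 (Syne1).

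Total counts in place of TMM factors lowered the log2 fold change of every member by a similar amount. They moved the median over all genes tested, on the log2 scale, from -0.02 to -0.27, the share of passing genes that were higher in labelled-cKO muscle from 51.7% to 14.2%, and the number of members that passed from 3 to 7, of which 2 were higher in labelled-cKO muscle and 5 in labelled-Ctrl muscle. Under total counts 4747 of the 14180 genes tested passed (33.5%), 673 of them higher in labelled-cKO muscle (4.75% of genes tested) and 4074 in labelled-Ctrl muscle (28.7%). The 4 added members were Sun1 (-0.30, adjusted p = 0.0183), Syne3 (-0.77, adjusted p = 0.0126), Tor1a (-0.48, adjusted p = 0.0331) and Tmem214 (-0.38, adjusted p = 0.0143). Relative to the shifted median they stood at -0.03, -0.50, -0.21 and -0.11, close to their values with TMM factors. Syne1 (0.62), Tor1aip1 (0.57) and Wfs1 (-1.31) also kept their distances from the median.

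**Figure D4:**
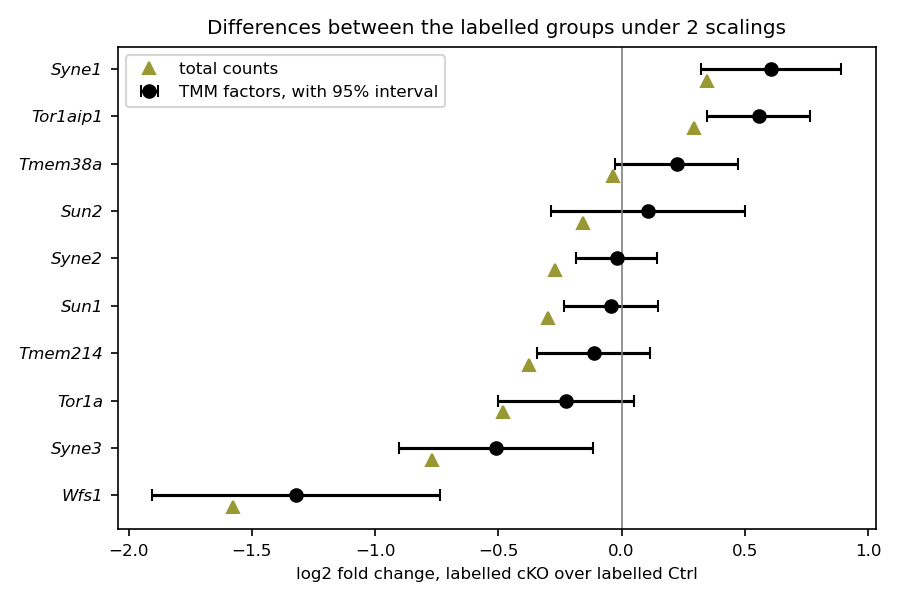
Log2 fold change of labelled cKO over labelled Ctrl (x axis) for each member with TMM factors (black points, bars are 95% intervals) and with total counts (triangles). Every triangle lies to the left of its point, and the intervals of Syne1, Tor1aip1, Syne3 and Wfs1 exclude 0.

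The members covered a wide range of levels. Per kb of exon, Tmem38a stood at 670.0 ± 26.2 CPM (SD, n = 3) in labelled-Ctrl muscle, followed by Wfs1 (68.1 ± 20.6), Sun2 (38.9 ± 7.34), Tor1aip1 (26.8 ± 1.18), Sun1 (9.11 ± 0.506), Tmem214 (5.64 ± 0.226), Tor1a (2.64 ± 0.103), Syne1 (2.64 ± 0.281), Syne2 (1.57 ± 0.0407) and Syne3 (1.01 ± 0.0875). Neighbors in that order had separate ranges except Tor1a and Syne1, and Syne1 came before Tor1a with the longest transcript as the length. The libraries labelled cKO put Wfs1, at 27.3 ± 5.05 CPM per kb, in the fourth place behind Sun2 (41.9 ± 6.09) and Tor1aip1 (39.4 ± 3.25), and Syne1 (4.02 ± 0.516) ahead of Tor1a (2.26 ± 0.135). There the ranges of Sun2 and Tor1aip1 overlapped, as did those of Tmem214 and Syne1. A length over all annotated exons lowers the level of a gene with many forms such as Syne1.

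Some genes outside the members shared their pattern. Over the 6 libraries and 12352 other genes with a mean of at least 1 CPM, the genes with the smallest root mean square distance to Tor1aip1 in centered log2 CPM were Det1 (0.0364), Reep5 (0.0422) and Dcun1d2 (0.0472). Those nearest to Wfs1 were Rhou (0.146), Myl6b (0.151) and Rcan2 (0.174). The distance includes the difference between the groups, so their log2 fold changes near that of Wfs1 (-1.28, -1.29 and -1.16) follow from the choice.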

How the data were processed

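Bulk RNA-Seq counts of 6 GP muscle libraries were used, 3 labelled Ctrl and 3 labelled cKO. Per the labels and the study's methods, the authors used FastQC 0.11.8, Trimmomatic 0.39 for trimming and HISAT2 2.1.0 with the mm10 genome, and deposited whole-number counts per gene from featureCounts 1.6.2, without normalization. The annotation and strand setting are not given in the sources used here. The study tested with DESeq.

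The test was that of edgeR 4.0.16 in R 4.3.3 (filterByExpr, TMM, glmQLFit, glmQLFTest), with Benjamini-Hochberg adjustment over all 14180 genes tested. Genes passed at an adjusted p under 0.05, and called genes also changed over 2-fold. Standard errors and 95% intervals came from the F statistic. Ratios and single CPM values were tested over libraries by exact two-sided permutation. Replicates differed by more than counting error (chi-square per degree of freedom 29.5 to 101), so no library repeats another. Nothing says whether mice shared litters or days. The scripts were tested on simulated data.

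Exon lengths and positions came from GENCODE M21 (GRCm38, the assembly of mm10), and promoters from RefSeq on GRCm38.p6, where all 10 members had a window. Members and lists were chosen with earlier results of these data known. The genes named are the members, the passing genes of each pathway list (at most 6, by p), the members' defining partners, and the 3 genes nearest in pattern to the member with the smallest p in each direction. Motifs, the 3 untested ratios, Syne4 and the markers named beside their counts were chosen after values were seen. The 13 alternatives were another scaling (total counts, or the size factors of DESeq2), another filter (none, or a minimum of 10 counts per library), the Wald test of DESeq2 1.42.0, the mouse number as a replicate block, a robust fit, and 6 fits without 1 library. The list counts in each fit were added after seeing the data.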

Additional observations from a re-analysis of the deposited data

How the results depend on the processing

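Of the 3 members that passed, Tor1aip1 and Wfs1 passed in all 13 alternative fits and Syne1 in 11. Members called stayed at 1 in each fit. The number of members that passed was 2 to 4 with 1 library left out and 7 with total counts. Genes that passed numbered 1560 to 3585 with 1 library left out and 4747 with total counts, and genes of the fixed lists 24 to 58 and 70. Directions turned for Sun2 (-0.16 with total counts, -0.040 without Ctrl 3, up to 0.21 without another library), Syne2 (0.00071 without Ctrl 3, down to -0.080) and Tmem38a (-0.036 with total counts), none of which passed. Relative to the median of all genes under total counts, Sun2 stood at 0.11 and Tmem38a at 0.23, so these 2 turns came with the shift of the median. The log2 difference in the ratio of Sun2 to Sun1 was -0.040 to 0.30 with 1 library left out. Causes were not tested. Deviations of same-numbered mice from their group means correlated at 0.084, -0.21 and -0.002. Different-numbered mice were not compared, so these values cannot show whether the mouse numbers pair the samples. With the mouse number as a replicate block 1899 genes passed, 28 of the fixed lists, and the same 3 members. Syne3 and Tor1a had the fewest counts of the members, 135 to 224 per library, with standard errors of 0.17 and 0.12, below the 0.25 of Wfs1. Fits with 1 library left out assume that the smaller group varies like the other.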
